A study of Caenorhabditis elegans with 2 samples.

Results

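The gene eel-1 carried the strongest peak of a chromatin immunoprecipitation sequencing (ChIP-seq) experiment on D1046.2, a protein annotated with a C2H2 zinc finger domain, in the nematode Caenorhabditis elegans. It is 1 of 19985 annotated protein-coding genes. It was chosen by the signal of that peak, so the signals and ranks of its peaks are given as a description, with no test. Its members are all regions of the deposited peak lists that lie within 5 kb of the annotated gene or its 5′ ends. They came to 6 of 1546 peaks in the conservative list, which combines both replicates, 3 of 1641 in a second list over both replicates, called optimal here, 2 of 619 in the list of replicate 1 and 2 of 463 in the list of replicate 2. The longer ranked lists, which also hold the candidate regions that did not pass the authors' threshold, had 47 of 106921, 46 of 107758, 46 of 95248 and 41 of 97419 regions in the same window, for the conservative list, the optimal list, replicate 1 and replicate 2 in turn.

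The worms were of strain OP397. They carried the transgene wgIs397, in which D1046.2 is fused to TY1, EGFP and 3xFLAG tags and which also holds unc-119(+), in an unc-119(tm4063) background. Larvae were synchronised by starvation at the L1 stage after bleaching and were taken as L4 larvae of 50 hours, and the tagged protein was pulled down with an antibody against GFP. There were 2 biological replicates in 1 group of whole animals, so a peak is a mixture over all tissues, and no group without the tag was analysed here. Both replicates hold the same transgene insertion, and the labels do not say whether the tagged protein replaces the function of D1046.2. The labels also do not say whether the replicates came from separate cultures.

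EEL-1 is a large HECT-domain E3 ubiquitin ligase, the C. elegans ortholog of human HUWE1. Ligases of this class take ubiquitin from a conjugating enzyme onto a cysteine of their own before passing it to the substrate. In C. elegans, eel-1 was named as an enhancer of mutations in efl-1, which encodes an E2F transcription factor, and it lowers the level of the transcription factor SKN-1 in the embryo. A ChIP-seq peak upstream of a gene marks where the tagged protein was recovered with DNA and does not measure transcription of that gene.

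In the Ensembl annotation of the WBcel235 assembly (ce11), eel-1 (WBGene00022069) covered chrIV:3032713-3050104 on the reverse strand, a length of 17392 bp. It had 8 transcripts with 3 distinct 5′ ends, of which 6 transcripts started at position 3049971, 1 at 3050040 and 1 at 3050104. Its start and end were the same in the RefSeq annotation. The strongest peak covered chrIV:3050305-3050698 with its summit at 3050480, and a second peak covered chrIV:3050760-3051016 with its summit at 3050917. The summits of both peaks lay beside the outer ends of the arms of an inverted repeat, and the sequences below are shown because this repeat lies between the summits. They are from the RefSeq genome sequence of the same assembly and run 5′ to 3′. In the first pair, each sequence holds the 50 bases on both sides of a summit, read towards the repeat, with the part that lies in the repeat arm in capitals. The strongest peak is read on the forward strand at chrIV:3050430-3050530, and the second peak on the reverse strand at chrIV:3050867-3050967.
strongest peak, summit to arm: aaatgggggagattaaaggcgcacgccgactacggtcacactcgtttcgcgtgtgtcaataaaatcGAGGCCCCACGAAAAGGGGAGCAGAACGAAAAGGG
second peak, summit to arm: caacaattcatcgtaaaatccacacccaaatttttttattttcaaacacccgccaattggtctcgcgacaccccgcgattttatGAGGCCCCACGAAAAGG
The whole arms are shown next, each read from its outer end inwards. The left arm is chrIV:3050496-3050627 on the forward strand and the right arm chrIV:3050752-3050883 on the reverse strand, with the 2 bases that differ between the arms in capitals.
left arm: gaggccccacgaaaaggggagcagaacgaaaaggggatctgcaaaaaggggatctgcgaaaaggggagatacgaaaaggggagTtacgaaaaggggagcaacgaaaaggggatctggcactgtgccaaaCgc
right arm: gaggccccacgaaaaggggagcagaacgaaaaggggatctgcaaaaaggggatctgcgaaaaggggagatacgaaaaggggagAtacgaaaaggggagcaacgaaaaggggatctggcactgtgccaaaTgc
Each arm was 132 bp long, the arms were 98.5% identical over 132 aligned columns, and 124 bp lay between them. An alignment of the intergenic sequence with its own reverse complement ran beyond the arms, over 414 columns at 79.2% identity. The word AAAGGGG occurred 7 times in each arm when the right arm was read on the reverse strand. 

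The strongest peak was intergenic, and its summit lay upstream of every annotated 5′ end of eel-1, by 376, 440 and 509 bp. Its near edge was 200 bp from the gene. The signal of a peak is the authors' own, deposited without its unit or scale. It is therefore compared here only within a list, or as a ratio set beside the same ratio for other peaks. The signal was 3151 in the conservative list, 1762 in replicate 1 and 1412 in replicate 2. It ranked first in each of the 4 thresholded lists. The next strongest peak elsewhere, near rpl-29, which encodes a protein of the large ribosomal subunit, had 1583, 861 and 712 in the same lists. The eel-1 peak was thus 1.99 times as strong as the next in the conservative list, 2.05 times in replicate 1 and 1.98 times in replicate 2. It was 33.0 times the median signal of the conservative list, 24.5 times that of replicate 1 and 18.7 times that of replicate 2, medians that were 95.5, 71.9 and 75.5.

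The label of strongest locus held for the thresholded lists and not for the ranked lists. In all 4 ranked lists the eel-1 peak was second, behind a candidate region at chrX:15810941-15811176 with a signal of 3586 in the conservative ranked list, 1865 in replicate 1 and 1866 in replicate 2. The signal of the eel-1 peak was 0.879 times that of the chromosome X region in the conservative ranked list, 0.945 times in replicate 1 and 0.757 times in replicate 2. The chromosome X region lay wholly in bases written in lower case, that is masked as repetitive or of low complexity, in the reference sequence. The upstream eel-1 peaks were also mostly masked, in 74.4% of the bases of the strongest and 80.9% of the second. The median share over all conservative peaks was 18.6%. The chromosome X region was 1 of 76 candidates that had at least the lowest score of the conservative list, 830, without being in that list. None of the 76 lay in the eel-1 window, and the sources used here do not give the reason for their absence.

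The second upstream peak was also intergenic and lay farther from the gene, with its summit 813, 877 and 946 bp from the 3 5′ ends of eel-1. Its signal was 763 in the conservative list, where it ranked 13. In replicate 1 the signal was 444, at rank 12 of the thresholded list, and in replicate 2 it was 389, at rank 8. The strongest peak was 4.13 times as strong as the second in the conservative list, 3.97 times in replicate 1 and 3.63 times in replicate 2, so the order was the same in both replicates. The summits were 437 bp apart and the peaks were separated by 61 bp. Among the conservative peaks there were 70 neighbouring pairs of summits within 500 bp of each other, and 29 peaks had a signal over 500. The eel-1 pair was the only neighbouring pair in which both signals were over 500. The stronger of the pair is the peak for which eel-1 was chosen, so this count tests nothing. Other limits on distance and signal were not tried.

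The summits of the upstream pair lay at nearly the same place in both replicates. Most of the weaker peaks in the eel-1 window that had a region of their own in the replicates shifted farther. The summit of the strongest peak was at the same base in replicate 1 as in the conservative list and 3 bp away in replicate 2. For the second peak the shifts were 1 bp in replicate 1 and 6 bp in replicate 2. Over all conservative peaks found in both replicates the median shift was 10 bp in replicate 1 and 17 bp in replicate 2. Among the weaker peaks, that in ivph-3 shifted 53 bp in replicate 1 and 3 bp in replicate 2. The shifts were 79 and 37 bp for the peak between the genes, and 15 and 7 bp for the stronger peak in the eel-1 exon. The weaker peak in the exon had no region of its own in either replicate. Its nearest regions were those of the stronger exon peak, with summits 185 and 207 bp away, so these distances are not shifts. The strongest peak was 394 bp wide, 370 bp in replicate 1 and 335 bp in replicate 2, and no peak of the conservative list was wider. The second was 257 bp wide, 249 bp in replicate 1 and 221 bp in replicate 2. In the conservative list 1476 of 1546 peaks shared a single width of 296 bp, from which both eel-1 peaks differed.

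Both upstream peaks had a higher signal in replicate 1 than in replicate 2. The ratio of replicate 1 to replicate 2 was 1.25 for the strongest peak and 1.14 for the second, against a median of 1.06 over the 1530 conservative peaks with a region in both replicates, with quartiles of 0.867 and 1.28. The ratio was lower than that of the strongest eel-1 peak for 71.7% of these peaks and lower than that of the second for 61.1%. Among the 100 strongest conservative peaks the median ratio was 1.21, with quartiles of 1.04 and 1.36, and 80 of 100 were above 1, as were 888 of all 1530. Both eel-1 ratios lay between the quartiles of the 100 strongest peaks, and the absolute size of either replicate's signal depends on a scaling that was not tested.

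**Figure D1:**
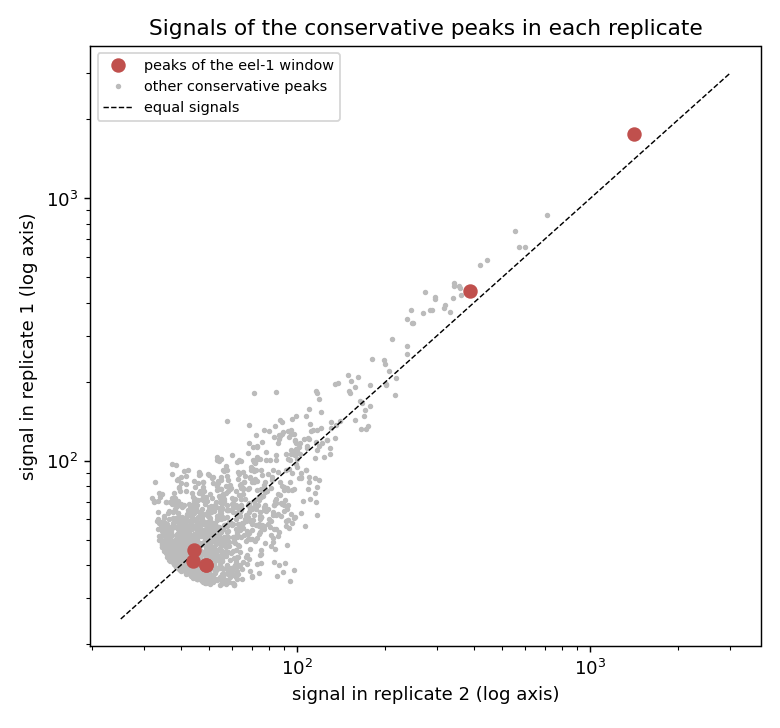
Signal in replicate 1 (y axis) against signal in replicate 2 (x axis), both on log axes and in the authors' deposited unit, for the 1530 conservative peaks with a region in both replicates. Red points are the peaks of the eel-1 window and grey points all other peaks, and the dashed line marks equal signals. The strongest eel-1 peak stands alone at 1762 and 1412, the second lies at 444 and 389, and the weaker eel-1 peaks lie in the main cloud under 50 in both replicates.

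The peaks elsewhere with replicate signals most like those of the strongest eel-1 peak were found by the distance between log10 signals over the 2 replicates. They were those nearest to rpl-29 at a distance of 0.43, npp-3 at 0.55, rpl-38 at 0.57, rpl-11.2 at 0.58 and snt-2 at 0.70. Each is named by the nearest 5′ end of a protein-coding gene, 59 to 373 bp from its summit. Genes of other kinds were not searched for these names. The genes rpl-38 and rpl-11.2 also encode proteins of the large ribosomal subunit, npp-3 a nuclear pore protein and snt-2 a synaptotagmin. The peak near npp-3 had 752 in replicate 1 and 553 in replicate 2, that near rpl-38 had 653 and 599, that near rpl-11.2 had 652 and 572, and that near snt-2 had 581 and 444. Each was under the eel-1 values of 1762 and 1412 in the same replicate. The eel-1 peak was chosen as the strongest, so the peaks most like it were the next strongest of the conservative list. That they lay under it was set by that choice.

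Of the 47 candidate regions in the eel-1 window, 6 were in the conservative list, and over the whole ranked list 1.45% of candidates were. In the optimal list the share over all candidates was 1.52%, in replicate 1 it was 0.65% and in replicate 2 it was 0.475%. The remaining 4 conservative peaks in the window had signals under the median of the conservative list, 95.5. One covered chrIV:3054918-3055213 in an intron of ivph-3 and had a signal of 94.1, rank 806, and it was the only one of the 4 that was also in the optimal list, at rank 817. Its nearest region had 45.9 in replicate 1 and 44.5 in replicate 2, and was in neither replicate's thresholded list. A peak between the genes, at chrIV:3052848-3053143, had a signal of 79.9 at rank 1295, and its nearest regions had 41.7 in replicate 1 and 44.3 in replicate 2.

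The remaining peaks lay in the gene itself, both with their summits in a coding exon, number 5 of eel-1. The first covered chrIV:3046162-3046457, with a signal of 92.7 at rank 842. The second covered chrIV:3046362-3046657, overlapped the first and had a signal of 7.57 at rank 1526. The nearest region in each replicate was the same for both, with a signal of 40.0 in replicate 1 and 48.7 in replicate 2. The exonic peaks are therefore not independent of each other, and neither was in the optimal list or in a replicate's own thresholded list. With overlapping peaks merged, the eel-1 window held 5 conservative peaks.

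The peaks just inside and just outside the limits that chose them were as follows. In the window the conservative peak with the lowest score had 957 and a −log10 IDR of 2.31, where IDR is the irreproducible discovery rate. The candidate with the highest score that was not in the list, at chrIV:3029862-3030157, had a score of 661, a −log10 IDR of 1.59 and a signal of 64.3. The conservative peak farthest from eel-1 in the window was 4814 bp from the gene, and the nearest outside it, with a signal of 90.4, was 26660 bp away.

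The other candidates in the eel-1 window had far lower signals than the upstream pair, and their median was above that of the whole list in each of these lists. In the conservative ranked list the other 45 candidates ranged from 4.10 to 94.1 with a median of 36.2, against 28.0 for the whole list. In replicate 1 the other 44 ranged from 3.07 to 45.9 with a median of 19.2, against 16.5 for its list, and in replicate 2 the other 39 ranged from 2.11 to 48.7 with a median of 22.2, against 16.9. The strongest peak was 33.5 times the highest of the others in the conservative ranked list, 38.4 times in replicate 1 and 29.0 times in replicate 2. The second peak was 8.10, 9.68 and 7.99 times the highest of the others. The upstream pair held 70.5% of the summed signal of the candidates in the window in the conservative ranked list, 72.5% in replicate 1 and 67.8% in replicate 2. Inside the gene there were 31 candidates in the conservative ranked list, with a median of 36.2 and a highest value of 92.7.

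**Figure D2:**
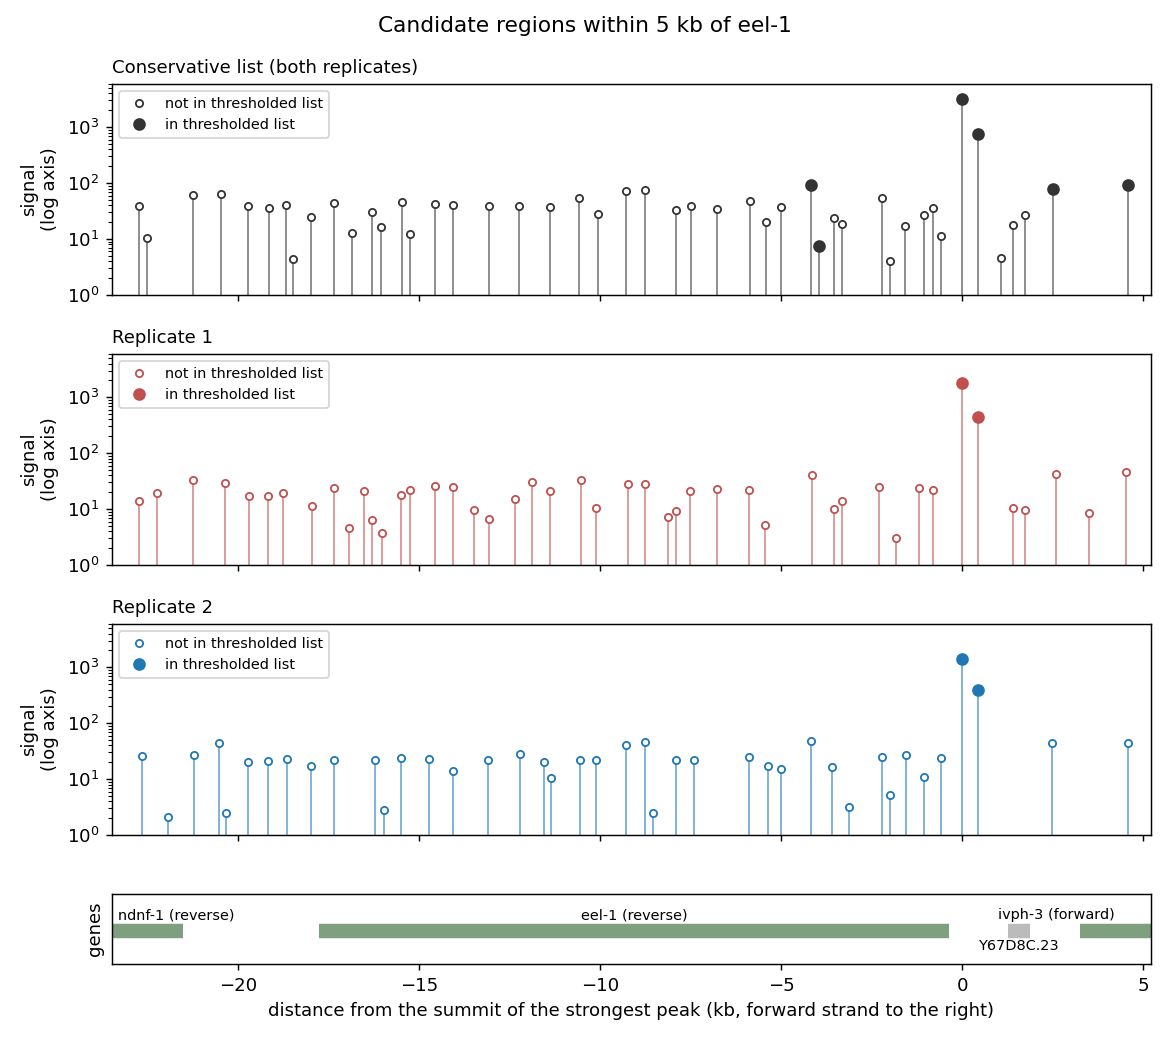
Signal (y axis, log scale, deposited unit) of every candidate region within 5 kb of eel-1 against its distance from the summit of the strongest peak (x axis, kb), in the conservative ranked list, replicate 1 and replicate 2 from top to bottom. Filled points are in the thresholded list, open points are not, and the lowest panel shows the annotated genes. The strongest peak and the second beside it stand above all other candidates in each panel, and those over the gene body to the left stay under 100.

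A window of 5 kb around gene and 5′ ends held at least 1 conservative peak for eel-1 and for 3536 of 19985 protein-coding genes in all, or 17.7%. At least 6 peaks were found for 3 genes, or 0.015%. These were eel-1, tos-1, with 6 peaks of which the strongest had 177, and mnk-1, with 8 peaks of which the strongest had 168. The window of eel-1 was 27392 bp long, longer than that of 98.6% of genes, whose median was 12026 bp. Its 0.219 peaks per kb were more than the density of 99.4% of genes. The 6 peaks of eel-1 include the overlapping peaks in its exon and become 5 when these are merged. The shares of genes were not recounted with merged peaks. The strongest summit also lay in the promoter of eel-1, taken as 500 bp upstream to 100 bp downstream of any 5′ end, and 468 protein-coding genes, or 2.34%, had a conservative summit in the promoter. The second summit was outside this promoter. Since the locus was chosen for its signal, these shares place it in the list and test nothing.

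On the other side of the upstream intergenic sequence lay the pseudogene Y67D8C.23 and then the protein-coding gene ivph-3. The pseudogene covered chrIV:3051756-3052358 on the reverse strand, with its 5′ end 1878 bp from the strongest summit and 1441 bp from the second. The 5′ end of ivph-3, which is on the forward strand and thus faces away from eel-1, was 3248 bp from the strongest summit and 2811 bp from the second. Both upstream summits were therefore nearer to the 5′ ends of eel-1 than to that of any other annotated gene. Beyond the 3′ end of eel-1 lay ndnf-1, whose 5′ end was 21538 bp from the strongest summit. The nearest annotated transfer RNA gene was 242054 bp away on the same chromosome.

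The summit of the strongest peak lay 16 bp outside the left arm of the inverted repeat, and the summit of the second peak lay 34 bp outside the right arm. Of the 394 bases of the strongest peak, 203 lay in the left arm or between the arms, and 124 of the 257 bases of the second peak lay in the right arm. The repeat was not particular to eel-1. A blastn search with the left arm found matches of at least 60 aligned columns at 54 places in the genome, called copies here, that of eel-1 included, and at 41 of them the matches were on both strands. A conservative summit lay within 200 bp of 18 of the 54 copies, among them that of eel-1. Of the 53 other copies 17 had one, or 32.1%. Over all conservative peaks 21 of 1546, or 1.36%, had their summit within 200 bp of a copy, and of the other candidates in the ranked list 48 of 105375, or 0.0456%. The 21 include both upstream eel-1 summits and the summit in ivph-3. Since the repeat was noticed at eel-1, part of the difference between these shares was set by that choice, and it was not tested.

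At the other copies the signals were far below those at eel-1. Since eel-1 was chosen for the strongest peak, its place above the other copies was set by that choice. The signal of 3151 at eel-1 was 9.33 times the highest of the 17 other copies with a conservative peak, whose signals ran from 81.8 to 338 with a median of 107. In replicate 1 the 1762 at eel-1 was 9.68 times the highest of 11 other copies with a peak, which had 58.4 to 182. In replicate 2 the 1412 at eel-1 was 9.35 times the highest of 6 other copies with a peak, which had 57.5 to 151. The highest were near atad-3, which encodes a mitochondrial ATPase, with 338 at rank 47, dnj-28, a DnaJ-domain gene, with 291 at rank 59, and rps-24, a ribosomal protein gene, with 206 at rank 116. The copies near dnj-28 and rps-24 had matches on both strands, as that of eel-1 did, and the copy near atad-3, at chrII:10248407-10248538, did not. Another copy lay close to it, at chrII:10247755-10247856, just beyond the 500 bp within which matches were joined. The strands of these copies were not compared with each other. With candidates that did not pass the threshold counted as well, 48 of the 53 other copies had a region within 200 bp, with signals of 9.94 to 338 and a median of 60.04, and 0 of them had over 500. The ranked list holds 106921 candidates, and the share of other stretches of this length with a candidate was not counted. The 48 of 53 therefore has no background beside it and is not read as a trait of the repeat.

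**Figure D3:**
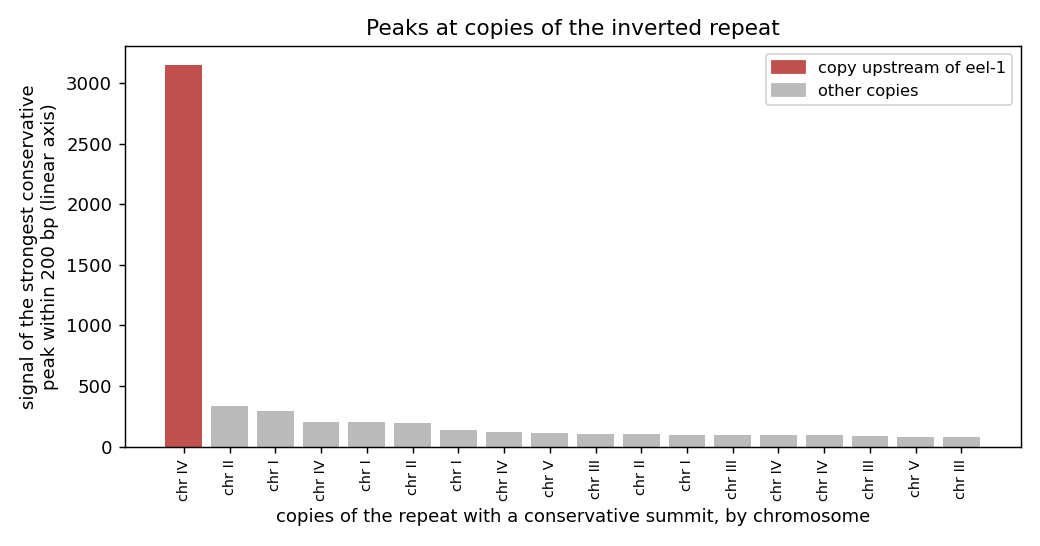
Signal of the strongest conservative peak within 200 bp (y axis, linear, deposited unit) at each of the 18 copies of the repeat that had one, named by chromosome and ordered by signal. The copy upstream of eel-1, in red, reaches 3151, and the 17 other copies, in grey, lie between 81.8 and 338. Copies with and without matches on both strands are drawn alike.

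The place of the summit relative to the copy varied. At eel-1 both summits were outside the arms. At the 17 other copies the strongest summit was outside the copy at 10 and inside it at 7, from 50 bp inside to 61 bp outside. Within the eel-1 window the peak in the ivph-3 intron overlapped a shorter partial copy of the repeat, which is 1 of the 17 other copies. The peaks in exon 5 and the one between the genes were 4186, 3986 and 2029 bp from the nearest copy.

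Reads from a sequence present many times in the genome cannot be placed with certainty, so the number of places of each word of the eel-1 peaks was counted. Of the 36-base words that lie wholly in the strongest peak, 239 of 359, or 66.6%, occurred once in the genome, against a median of 100% over all conservative peaks, of which 960 of 1546 had every word once. The share was lower for 12.5% of the peaks. Outside the arm 156 of 156 words of the strongest peak occurred once, and in the arm and between the arms 53 of 168 did, with up to 62 copies of a word, and of the 35 words across the edge of the arm 30 did. For the second peak the share was 130 of 222, or 58.6%, made up of 98 of 98 words outside the arm, 0 of 89 in the arm and 32 of 35 across its edge. Both summits lay in the parts of the peaks where every word occurred once. Among the 25 strongest conservative peaks 21 had every word once and 2 had under 50%. No source used here gives the read length or says how reads with several places were treated, and the part of the repeat in the signal of either eel-1 peak was not tested.

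**Figure D4:**
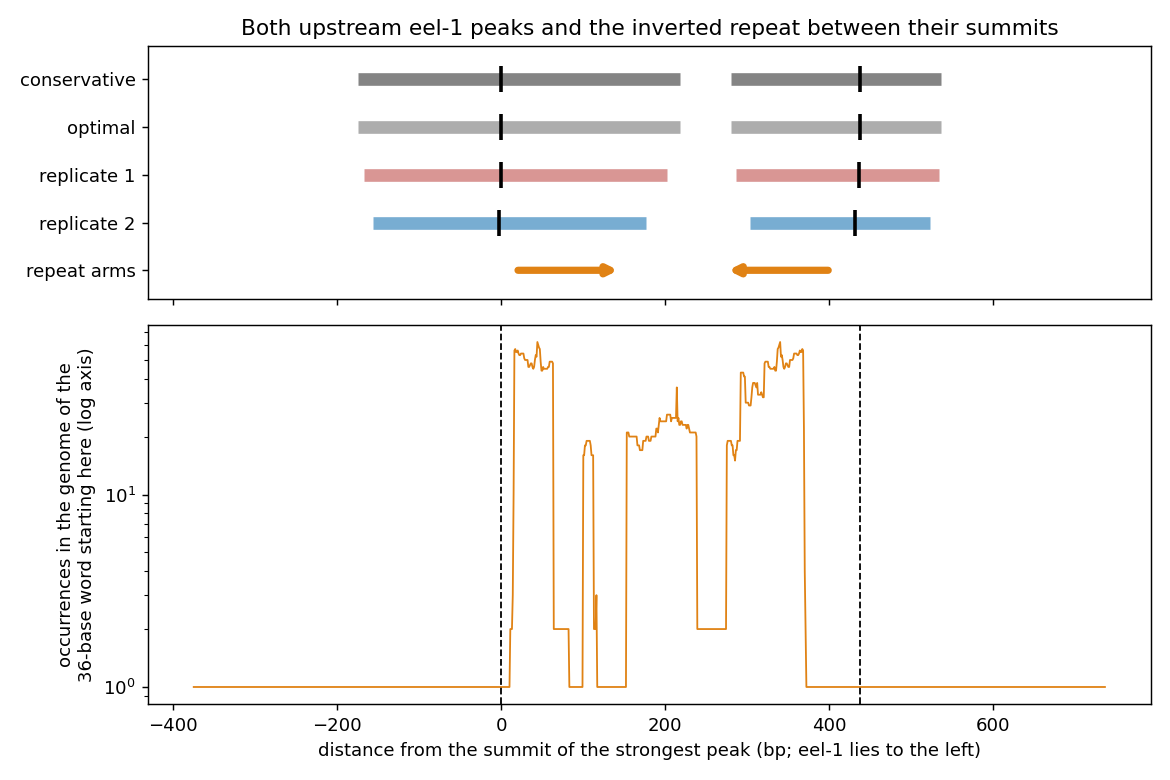
Upper panel: extent (bars) and summits (black ticks) of both upstream eel-1 peaks in the conservative, optimal, replicate 1 and replicate 2 lists, with the arms of the inverted repeat as arrows, against distance from the summit of the strongest peak (x axis, bp). Lower panel: number of occurrences in the genome of the 36-base word that starts at each position (y axis, log scale). Both summits, marked by dashed lines, lie where words occur once, beside arms where words occur up to 62 times.

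The GC share within 50 bp of the summit was 53.5% for the strongest peak and 44.6% for the second, against a mean of 49.6% over all conservative peaks, 40.3% over the other candidates and 33.6% over promoters. The GC share was lower than at the strongest eel-1 summit for 65.7% of the conservative peaks and lower than at the second for 23.5%. The same windows were searched on both strands for the words of 6 bases named in the next sentences, and promoter windows of the same length ended at an annotated 5′ end. None of the words was present around the strongest eel-1 summit, and only TTTTTT was present around the second. TTTTTT was in the window of 19.02% of conservative peaks, 31.2% of other candidates and 47.3% of promoters. CGAACC was in 11.97% of conservative peaks, 2.32% of other candidates and 1.08% of promoters. GAGAGA was in 10.3%, 6.21% and 8.83%, GCGCCA in 8.54%, 2.53% and 1.33%, GGGCGG in 6.27%, 2.69% and 3.31%, and GCGCGC in 6.21%, 1.09% and 1.01%. CACGTG was in 4.27%, 2.33% and 2.28%, TGATAA in 3.95%, 7.40% and 12.1%, TATAAA in 3.23%, 7.10% and 17.5%, TGACGT in 2.72%, 3.74% and 3.12%, and CTTATC in 2.72%, 3.53% and 6.73%. GCGCGC and GCGCCA share GCGC, and TGATAA and CTTATC share GATAA when read on opposite strands, so 1 site can count towards both words of such a pair. The absence of a word says only that these letters are not in this window.

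Since eel-1 was chosen for its peak, it is left out of the counts of other genes of the ubiquitin pathway given here. Among all protein-coding genes 2.34% had a conservative summit in the promoter and 17.7% a conservative peak in the 5 kb window. Of the 7 other HECT ligase genes 1 had a promoter summit, wwp-1, which encodes a HECT ligase with WW domains, with a signal of 222 at rank 94. In the window 4 of the 7 had a peak, wwp-1 and, with a peak outside the promoter, hecd-1 at 53.4, hecw-1 at 101.3 and oxi-1 at 97.5. Of 26 genes of ubiquitin and of its activating and conjugating enzymes 1 had a promoter summit, ubc-6, which encodes a conjugating enzyme, with 222 at rank 96, and 10, or 38.5%, had a peak in the window. Of 20 other ubiquitin ligases and their subunits 0 had a promoter summit and 5, or 25%, had a peak in the window. Of the 4 genes linked to eel-1 by genetics, efl-1, its partner dpl-1, skn-1 and lin-35, which encodes the retinoblastoma homolog, lin-35 had a promoter summit, with 131 at rank 339, and efl-1, dpl-1 and skn-1 had no peak in the window. Over the 4 lists 3 of 57 genes, or 5.26%, had a promoter summit and 20, or 35.1%, a peak in the window. These are counts of genes and not of separate peaks, as ubc-15 and ubc-26 each had a single peak with the same signal, 87.3. No difference from all genes was tested, and the window lengths of the listed genes were not compared with those of all genes. The highest signal at any gene of the 4 lists other than eel-1 was 222. That this was under the 3151 of eel-1 was set by the choice of eel-1.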

How the data were processed

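Peak lists on the ce11 build were used as the authors deposited them, for 2 replicates in 1 group. No source used here gives the peak caller, the aligner or the threshold. The lists hold peaks and not reads, so the read depth is unknown. The control was not analysed here. Column 7 holds the authors' deposited signal, used within a list, and column 5 a deposited score with a lowest value of 830 in the thresholded lists. The ranked lists also hold the IDR as a deposited −log10 value, whose lowest value among conservative peaks was 2.00, an IDR of 0.01. Replicate values of a conservative peak come from the region of that replicate's ranked list with the nearest summit. Regions were set beside Ensembl release 115 and the RefSeq sequence, and 0 regions ran beyond a chromosome end. Copies of the repeat were found with blastn 2.17.0 (e-value 1e-05), with matches within 500 bp joined. Counts and ratios were computed with Python 3.11.15, pandas 2.3.3 and numpy 2.4.6, and the counting was tested on simulated data. The gene, its members, the word list and the gene lists were chosen with earlier results of these data known, and the repeat was noticed in these data. Named besides eel-1 were its neighbours, the 5 peaks most like its own, listed genes, and genes of the repeat copies and peak-rich windows. The alternatives were other lists, windows, promoters and single replicates.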

Additional observations from a re-analysis of the deposited data

How the results depend on the processing

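Of 57 alternative values, 33 kept within the limit set for their result, 24 moved and 0 reversed. The limits differed between results, so these counts do not measure stability on 1 scale. With windows of 1 and 2 kb eel-1 held 4 peaks, which counted as kept against 6. A summit distance of 373 bp counted as moved against 376 bp. The eel-1 window held 2 to 2 peaks with one replicate left out, 3 in the optimal list and 2 among the stronger 50% of the conservative list. With one replicate left out, the signal of the strongest peak was 1412 to 1762 and that of the second 389 to 444, its ratio to the next peak elsewhere 1.98 to 2.05, its distance to the nearest 5′ end 373 to 376 bp and its GC share 52.5% to 53.5%. The GC share was 49.8% with 100 bp and 49.2% with 150 bp on each side of the summit. The rank of the strongest peak was 2 in the conservative, optimal, replicate 1 and replicate 2 ranked lists alike. Genes with at least 1 peak numbered 1260 to 1640 with one replicate left out, and 1730, 2213 and 5418 with windows of 1, 2 and 10 kb. Listed genes with a peak, eel-1 included, were 4 by promoter and 21 by the 5 kb window. Copies of the repeat with a peak were 7 to 12 with one replicate left out, against 18 in the conservative list; the alternatives for copies were chosen after seeing the data. Leaving a replicate out means using the other replicate's own list, so fewer peaks are listed; the causes of the other shifts were not tested. No paired analysis was possible because the study has only 1 group. With 2 replicates, unknown depth and no control analysed here, neither a test of the eel-1 signal nor a background level could be given.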
